A study of Sus scrofa with 16 samples.

Results

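The comparison described here is that of male porcine aortic valve interstitial cells on tissue culture plastic with the same kind of cells on a soft hydrogel. It sets side by side 8 of the 16 RNA-seq libraries of the study. Of these, 4 are labelled male fibroblast, from cells on a poly(ethylene glycol)-norbornene hydrogel with an elastic modulus of about 5.8 kPa. The other 4 are labelled male myofibroblast, from cells on plastic. Members were taken by their column names alone, and no measured value was used to choose them. Both male groups came from leaflets of pigs aged 5 to 6 months and spent 48 hours in Media 199 with 1% fetal bovine serum, penicillin, streptomycin and amphotericin B. No drug, added growth factor or gene edit is named for any group. The remaining 8 libraries hold female cells on the same surfaces (4 each). They enter as a comparison of the surface effect, and they share the fit that sets the error of the male tests. Replicates are called biological in the submitters' design text, but no label says that each came from a separate animal, so the p-values measure the spread between these libraries, whatever its source. Surface is the only label that differs between the male groups, and the surfaces differ in stiffness and in material together, so these cannot be told apart.

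Valve interstitial cells are the fibroblasts of the heart valve leaflet. They lay down and remodel its collagen, elastin and proteoglycan layers, and in culture on a stiff surface they are known to turn into myofibroblasts, contractile cells that carry alpha-smooth-muscle actin in stress fibres. The known route runs through integrins and focal adhesions, which connect matrix to actin. Polymerised actin frees the cofactor MRTF to bind serum response factor (SRF), tension moves YAP and TAZ into the nucleus, and TGF-beta released from latent stores adds to both. Soft gels are used to keep the same cells in a quiescent state, which is how the submitters describe the gel cultures.

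Levels are given in CPM, a gene's count per 1000000 counts of the library, scaled by the trimmed mean of M values (TMM) of that library. Log2 changes are plastic minus gel from edgeR's quasi-likelihood fit, and a gene was called where the p adjusted by the Benjamini-Hochberg method over 14530 tested genes was under 0.05. CPM is not divided by gene length, so levels of different genes are not ranked against each other. Total counts of the male libraries ran from 16928784 (gel 2) to 26379065 (gel 1), and gel 2 also had the fewest genes with a count, 15476. Reads from overlapping genes or near-identical copies cannot be told apart. Neither the strand setting of the counting nor the handling of multi-mapping reads is given in the sources used here. In bulk RNA, fewer cells of a type and less RNA per cell cannot be told apart.

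Some male libraries stood apart before any gene was looked at. On the first principal component of the 500 most variable genes, which held 67% of their variance, the gel libraries lay at -40.83 to -21.76 and the plastic libraries at 25.83 to 30.14. The second, with 15.3%, placed gel 2 highest (21.96) and gel 4 lowest (-27.26), and plastic 4 (-12.77) was the lowest on plastic. Among 8200 genes with a mean of at least 10 CPM on both surfaces, the change in pair 2 exceeded those of all 3 other numbered pairs by more than 1 log2 unit in 282 genes and lay that far below them in 36. In pairs 1, 3 and 4 such genes numbered at most 9 in either direction. Results that turn on gel 2, gel 4 or plastic 4 are given with and without them.

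The labelled cell type was checked against its markers. Summed CPM of 14 interstitial and fibroblast markers was 42220 to 48108 on gel and 48617 to 55543 on plastic. The sum was higher on plastic, while 6 of the 14 members were called lower and 3 higher (median log2 change -0.38). Vimentin (VIM), the intermediate filament of mesenchymal cells, stood at 5661, 5261, 6495 and 6184 CPM on gel and 5067, 4900, 4829 and 5690 CPM on plastic and was not called (log2 change -0.20, adjusted p = 0.26). PDGFRB, a mesenchymal growth factor receptor, was not called either, with 233 ± 72.4 CPM on gel and 256 ± 17.1 CPM on plastic (SD, n = 4 each). The leukocyte marker PTPRC was too low to be tested. Endothelial markers were present at a low level, 162 to 283 CPM summed on gel and 208 to 355 on plastic.

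Male cells on plastic and on gel differed in many genes, in both directions. Of 14530 genes tested, 3748 were called (25.8%), 1876 higher on plastic (12.9%) and 1872 lower (12.9%). Among the called genes, 715 rose and 583 fell by at least 2-fold, 211 rose and 195 fell by at least 4-fold, and 22 in each direction passed 16-fold. The median log2 change was 0.81 over the genes that rose, -0.69 over those that fell and -0.03 over all genes. In 4196 genes (28.9%) the 4 libraries of one surface all lay on one side of the other 4, and this held for 1703 of the genes called higher and 1562 of those called lower. All 4 numbered pairs moved in the called direction for 1841 and 1797 genes. The genes were called on these same libraries, so lack of overlap and agreement of pairs among them follow largely from the call. Against a fold of 1.2 in place of 0, edgeR's glmTreat called 2189 genes, 1226 higher and 963 lower, and fits without 1 library called from 2859 (without plastic 3) to 3609 genes (without gel 2). Without both libraries numbered 4, a choice made after seeing the data, 2662 genes were called, 1399 higher and 1263 lower.

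**Figure D1:**
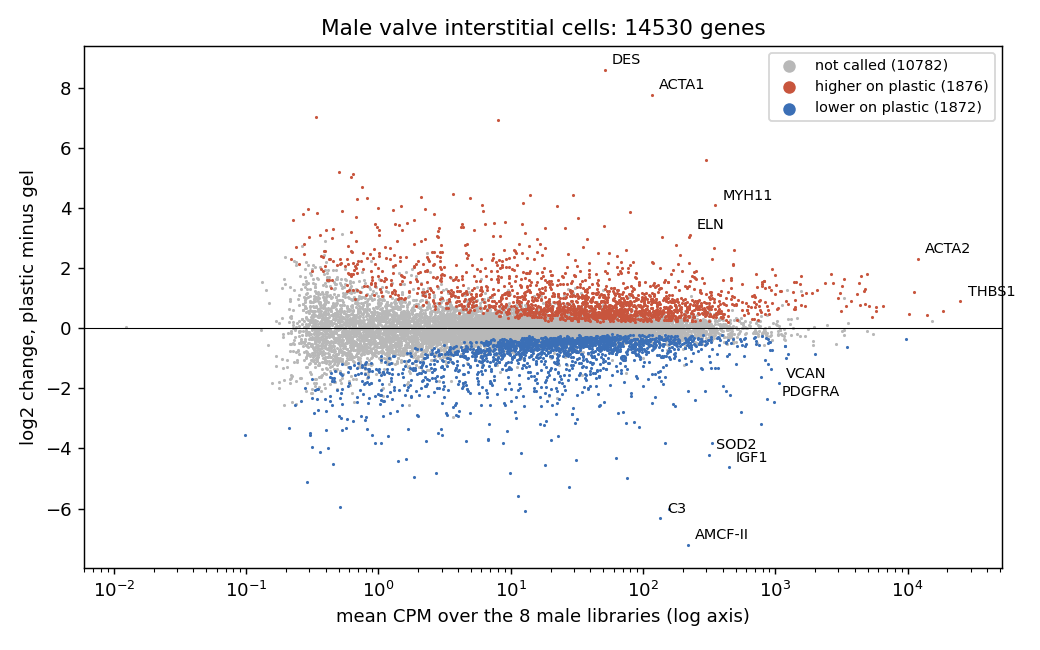
Each point is 1 of the tested genes, with its mean CPM over the 8 male libraries (log axis) against its log2 change, plastic minus gel; colours give the call. The 1876 genes higher on plastic and 1872 lower ones spread over the whole range of CPM, with DES and ACTA1 among the highest changes and AMCF-II and C3 among the lowest.

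The called share was higher in more abundant genes: 13.9% were called in the least abundant of 4 equal bins of genes, then 22.9%, 28.1% and 38.4% of the most abundant. In the highest of these bins, 856 genes were higher and 539 lower on plastic. By share of all counts, the genes called higher made up 26.8% to 30.1% of each gel library and 44.9% to 46.2% of each plastic library. Genes called lower made up 16.6% to 18.7% on gel and 8.78% to 9.06% on plastic. Both sets were called on these same libraries, so the direction of these shifts follows from the call. The 50 most abundant genes took 21.5% to 23.9% of a gel library and 29.3% to 30.6% of a plastic one. Counts of a plastic library were more concentrated on few genes, and its TMM factor was lower (0.8957 to 0.936 on plastic, 1.048 to 1.101 on gel).

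**Figure D2:**
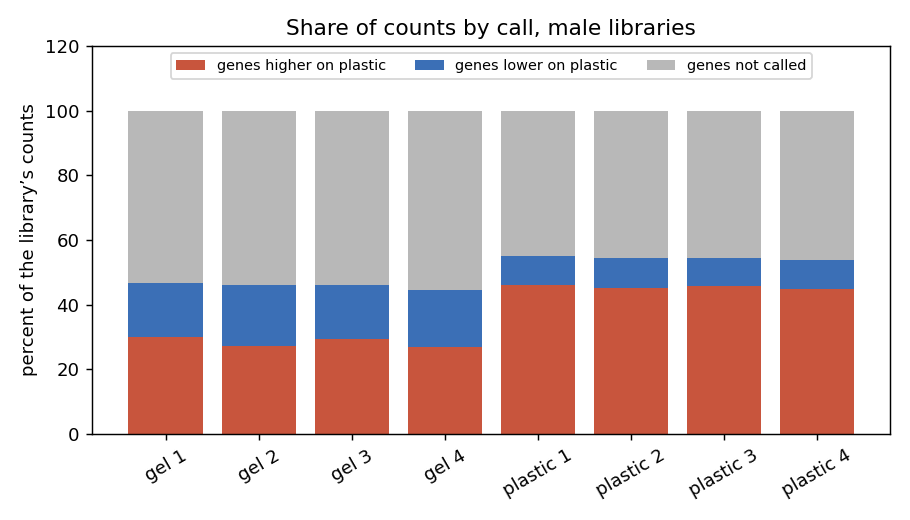
Stacked bars give, for each male library, the percent of its counts that fell on genes called higher, called lower or not called on plastic. All 4 plastic libraries have 44.9% to 46.2% on the genes called higher, against 26.8% to 30.1% in the gel libraries; the genes were called on these same libraries.

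Most of the 8 genes with the largest gain in CPM encode cytoskeletal or matrix proteins. Alpha-smooth-muscle actin (ACTA2, chromosome 14, 100868145 to 100886732, RefSeq Sscrofa11.1, as all positions here), the standard myofibroblast marker, read 4624, 3954, 4891 and 2499 CPM on gel and 19973, 20877, 21478 and 17466 CPM on plastic. Every plastic library was above every gel library, and gel 4 was the lowest of all. ACTA2 rose 5.0-fold (log2 change 2.32, SE 0.31, adjusted p = 4.64e-05), with changes of 2.11, 2.40, 2.13 and 2.81 in numbered pairs 1 to 4. Thrombospondin 1 (THBS1), a matrix protein that can activate latent TGF-beta, rose from 17463 ± 2410 to 32643 ± 3347 CPM (SD, n = 4). Filamin A (FLNA), which crosslinks actin filaments, measured 8346, 4680, 7568 and 6143 CPM on gel and 15469, 16522, 15015 and 15090 CPM on plastic. The groups did not overlap, and gel 2 was the lowest. FLNA rose 2.32-fold (log2 change 1.22, adjusted p = 0.000175). Fibronectin (FN1), the matrix ligand of several integrins, rose from 15052 ± 856 to 22211 ± 846 CPM. Tropomyosin 1 (TPM1), which lines actin filaments, rose 3.31-fold. Non-muscle myosin IIB (MYH10), a stress fibre motor, rose 2.81-fold.

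Of the 8 genes with the largest loss in CPM, some encode matrix proteins too. The elongation factor EEF1A1 fell from 10947 ± 764 to 8625 ± 528 CPM (log2 change -0.34, adjusted p = 0.0156), a small relative change, and its call was lost with 1 library out (adjusted p = 0.0542 without plastic 4). The platelet-derived growth factor receptor PDGFRA (chromosome 8, 40966568 to 41021440), a marker of resting fibroblasts, read 1957, 1761, 1306 and 1571 CPM on gel and 322, 324, 328 and 238 CPM on plastic. All plastic libraries lay far below all gel libraries, with plastic 4 the lowest. PDGFRA fell 5.44-fold (log2 change -2.44, SE 0.16, adjusted p = 3.07e-08). Type VI collagen COL6A3 fell from 4196 ± 833 to 2746 ± 332 CPM (log2 change -0.61, adjusted p = 0.0172), with its call lost in some fits (adjusted p = 0.0585 without gel 1 and 0.0584 without plastic 4). Versican (VCAN), a large proteoglycan of the valve's middle layer, periostin (POSTN), a matricellular protein of developing valves, SERPINE2, a thrombin inhibitor, and the monocyte chemokine CCL2 also ranked here and are described with their groups. LOC100625479, an unnamed protein-coding gene on chromosome 3, fell from 1413 ± 358 to 154 ± 31.0 CPM (log2 change -3.20, adjusted p = 6.47e-08).

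Ranked by p, the 10 leading losses included an antioxidant enzyme, chemokines and an adhesion molecule. Mitochondrial superoxide dismutase (SOD2, chromosome 1, 7679352 to 7689564), which removes superoxide, read 698, 612, 575 and 511 CPM on gel and 33.4, 38.3, 33.2 and 25.3 CPM on plastic. No library came near the other group, and the spread within each surface was small. SOD2 fell 18.4-fold (log2 change -4.20, SE 0.15, adjusted p = 5.05e-11), the smallest p of the table. Also among the 10 smallest p of lower genes were CCDC8 (-2.44), part of a cullin-linked complex, and RND1 (-4.82), an atypical small GTPase that loosens actin fibres. CEBPD, a transcription factor of the acute-phase response, fell 5.28-fold. CLMP, a junction adhesion protein, fell 3.82-fold, and GAS1, a growth-arrest and hedgehog co-receptor protein, fell 3.08-fold. VCAM1, the vascular cell adhesion molecule that binds leukocyte integrins, read 432, 779, 618 and 657 CPM on gel and 37.3, 42.0, 45.3 and 53.6 CPM on plastic. It fell 13.9-fold (log2 change -3.80, adjusted p = 1.12e-08) with no overlap between surfaces.

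Among the 10 smallest p of higher genes, PELI2, an E3 ubiquitin ligase of the IL1 and Toll-like receptor routes, rose from 16.6 ± 2.31 to 93.9 ± 14.9 CPM (log2 change 2.50, SE 0.15, adjusted p = 1.12e-08). ATP10A, a phospholipid flippase, rose 4.54-fold. PLA2G3, a secreted phospholipase A2, rose 11.2-fold. The other 7 had log2 changes from 1.18 (EHBP1L1) to 2.19 (SUSD1). They were the doublecortin-like kinase DCLK2 (1.49), the 14-3-3 protein YWHAH (1.55), the Ras GTPase-activating protein RASAL2 (1.54), OSTF1 (2.03), and MYO9B (1.28), a myosin that carries a GTPase-activating domain.

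**Figure D3:**
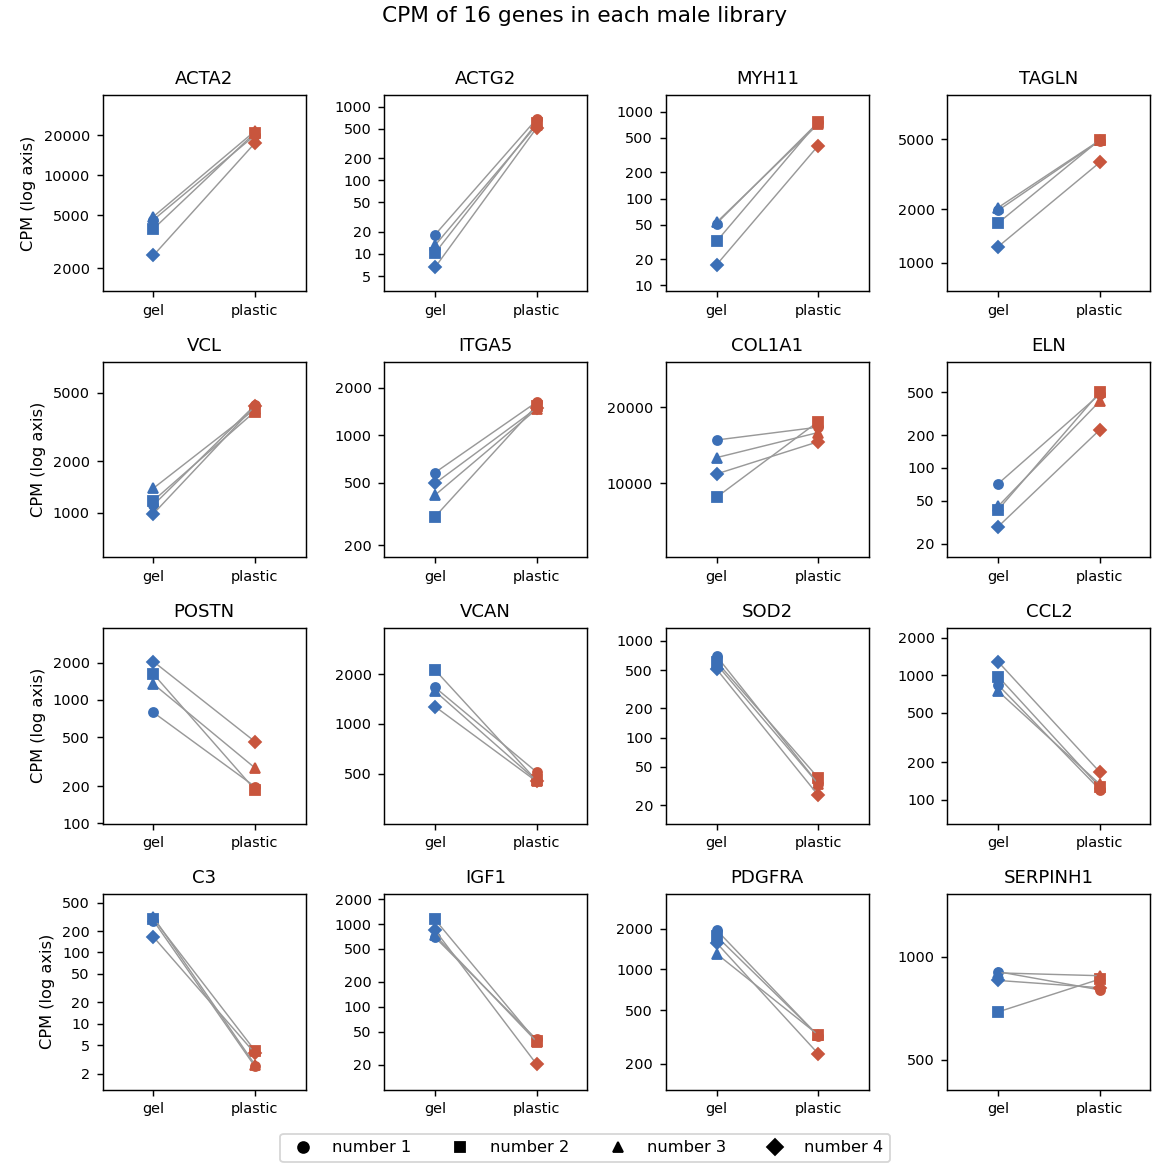
Each panel gives 1 gene's CPM (log axis) in the 4 gel and 4 plastic male libraries; marker shapes are replicate numbers and grey lines join libraries with the same number. Contractile and elastic genes lie higher on plastic, SOD2, CCL2, C3, IGF1 and PDGFRA lie lower without overlap, and SERPINH1 is level.

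Contractile genes of the male cells were higher on plastic in most of their lists. All 6 actin isoforms were called higher (median log2 change 3.38, beside -0.03 and 12.9% called higher over all genes). Gamma-smooth-muscle actin (ACTG2, chromosome 3, 69097366 to 69121542), the enteric muscle isoform, read 18.2, 10.3, 13.1 and 6.55 CPM on gel and 679, 596, 560.1 and 512 CPM on plastic. The groups stood far apart, with gel 4 and plastic 4 the lowest of their surfaces. ACTG2 rose 48.5-fold (log2 change 5.60, SE 0.48, adjusted p = 6.7e-07). Skeletal actin (ACTA1) stood at 1.26, 0.452, 1.60 and 0.718 CPM on gel and 369.5, 226, 142 and 186 CPM on plastic. It was close to absent on gel and rose 218-fold (log2 change 7.77, adjusted p = 5.32e-06), with plastic 1 the highest. Cardiac actin (ACTC1) read 1.65, 2.71, 5.85 and 0.0897 CPM on gel and 60.0, 59.4, 95.5 and 11.5 CPM on plastic. Here plastic libraries varied widely, gel 4 and plastic 4 were the lowest of their surfaces, and ACTC1 rose 21.7-fold (log2 change 4.44, adjusted p = 0.00622; log2 change 5.29 without gel 3). The cytoplasmic isoforms ACTB and ACTG1, present in all cells, rose 1.70-fold and 1.67-fold.

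Of 5 tested calponins and transgelins, actin-binding proteins of smooth muscle, 4 were higher on plastic, 0 lower and 1 not called, with a median log2 change of 0.91. Transgelin (TAGLN) measured 1974, 1675, 2049 and 1231 CPM on gel and 4890, 4946, 4916 and 3688 CPM on plastic. Gel 4 and plastic 4 were again the lowest of their surfaces, and the groups did not overlap. TAGLN rose 2.66-fold (log2 change 1.41, adjusted p = 0.000656), and calponin 1 (CNN1) rose 4.45-fold. CNN2 and TAGLN2 rose 1.88-fold and 1.43-fold. CNN3, by contrast, had 319 ± 26.2 CPM on gel and 319.9 ± 21.7 CPM on plastic (95% interval of the log2 change -0.18 to 0.19).

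Among 16 tested tropomyosins, myosins and their regulators, 13 were higher on plastic, 0 lower and 3 not called, with a median log2 change of 1.40. Smooth muscle myosin heavy chain (MYH11, chromosome 3, 7002667 to 7143093), a marker of differentiated smooth muscle, read 51.6, 32.1, 53.2 and 17.3 CPM on gel and 753, 765, 719 and 405 CPM on plastic. Plastic 4 lay well under the other plastic libraries and still far above all gel libraries. MYH11 rose 17.1-fold (log2 change 4.09, SE 0.53, adjusted p = 3.29e-05). Non-muscle myosin IIA (MYH9), the main motor of stress fibres, rose 2.47-fold, and the myosin light chain kinase MYLK rose 5.45-fold.

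Of 17 sarcomere and Z-disc genes, 13 were higher on plastic, 1 lower and 3 not called, with a median log2 change of 1.24. Desmin (DES, chromosome 15, 121428539 to 121435426), the muscle intermediate filament, read 0.631, 0, 0.112 and 0.179 CPM on gel and 169.8, 73.8, 61.9 and 105 CPM on plastic. It had at most a trace on gel, with no count in gel 2, and 61.9 CPM or more in every plastic library. The fitted log2 change was 8.61 (SE 0.67, adjusted p = 2.43e-07), or 9.87 without gel 1. Among the male libraries DES could pass the abundance filter for testing only through plastic. The direction of DES, also in the count above, is therefore no separate evidence. Titin (TTN), the giant spring of the sarcomere, rose 6.15-fold, and alpha-actinin 4 (ACTN4), which bundles stress fibres, rose 2.53-fold. The sarcomere counts were 0 called lower in the paired fit and 0 called lower without gel 1, gel 3, gel 4, plastic 1, plastic 2 or plastic 4.

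Of 20 focal adhesion plaque genes, 13 were higher on plastic, 0 lower and 7 not called, with a median log2 change of 0.78. Vinculin (VCL, chromosome 14, 76700143 to 76811875), which ties talin to actin under tension, measured 1110, 1178, 1390 and 988 CPM on gel and 4225, 3880, 4004 and 4177 CPM on plastic. The surfaces did not overlap, with gel 4 lowest. VCL rose 3.49-fold (log2 change 1.80, SE 0.17, adjusted p = 1.53e-06), and tensin 1 (TNS1) rose 3.37-fold. PTK2, focal adhesion kinase, had 78.4 ± 4.46 CPM on gel and 90.6 ± 3.47 CPM on plastic and was not called, except without gel 2 (adjusted p = 0.0334 without gel 2).

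Of 18 LIM-domain proteins, several of which bind strained actin, 13 were higher on plastic, 1 lower and 4 not called, with a median log2 change of 0.73. Fits without 1 library called 9 to 12 of them higher. PDLIM7, an adaptor of actin and alpha-actinin, rose 2.80-fold, and PDLIM1 rose 2.12-fold. PDLIM4 alone was called lower (from 10.9 ± 3.09 to 5.91 ± 0.630 CPM, adjusted p = 0.029), a call lost in fits with 1 library out (adjusted p = 0.067 without gel 1, 0.0814 without gel 4, 0.0711 without plastic 2, 0.0554 without plastic 3 and 0.0743 without plastic 4).

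Of 17 integrin subunits, 8 were higher on plastic, 0 lower and 9 not called, with a median log2 change of 0.50. The integrin counts were 2 called lower in the paired fit and 1 called lower without gel 4. The fibronectin receptor subunit ITGA5 (chromosome 5, 19587361 to 19610580) read 579, 303, 416 and 494 CPM on gel and 1625, 1546, 1464 and 1487 CPM on plastic. Every plastic library was above every gel library. ITGA5 rose 3.41-fold (log2 change 1.77, SE 0.21, adjusted p = 1.33e-05), and the collagen and laminin receptor subunit ITGA1 rose 2.99-fold. ITGAV, a subunit of the integrins that release latent TGF-beta, had 319 ± 64.0 CPM on gel and 327 ± 14.4 CPM on plastic (adjusted p = 0.858).

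Of 12 mechanosensitive channel genes, 6 were higher on plastic, 1 lower and 5 not called, with a median log2 change of 0.50. Polycystin 1 (PKD1) rose 3.03-fold and the sodium-permeable, calcium-activated channel TRPM4 rose 3.46-fold. TRPV2 was the lower one (log2 change -0.41, adjusted p = 0.0144), and its call was lost in some fits (adjusted p = 0.056 without plastic 2 and 0.0512 without plastic 4). The channel counts were 2 called lower in the paired fit, 2 called lower without gel 1 or gel 2 and 0 called lower without plastic 2 or plastic 4. PIEZO1, the best-known stretch-gated channel, had 112 ± 42.0 CPM on gel and 159 ± 8.22 CPM on plastic (adjusted p = 0.117). Of 12 nuclear lamina and LINC genes, which couple the nucleus to the cytoskeleton, 5 were higher on plastic, 0 lower and 7 not called, with a median log2 change of 0.22. The lamina counts were 3 called higher without gel 4, plastic 1 or plastic 3 and 1 called lower in the paired fit. The largest of these changes was 0.62 (LBR, the lamin B receptor), and SUN1, a LINC protein of the inner nuclear membrane, rose by 0.55.

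The transcription factors that read actin tension changed unevenly. Of 20 genes of the SRF and YAP machinery, 11 were higher on plastic, 2 lower and 7 not called, with a median log2 change of 0.40. SRF read 76.2, 51.6, 84.1 and 66.6 CPM on gel and 116, 114, 133 and 118 CPM on plastic, did not overlap between surfaces and rose 1.73-fold (log2 change 0.79, adjusted p = 0.0007). Its cofactor MKL1, also known as MRTFA, rose 2.69-fold (log2 change 1.43, adjusted p = 8.76e-06), and the smooth muscle cofactor MYOCD rose from 2.79 ± 1.67 to 13.6 ± 2.46 CPM. YAP1 was not called (187 ± 20.2 CPM on gel and 203 ± 15.8 CPM on plastic, 95% interval of the log2 change -0.15 to 0.40). NF2, an upstream activator of the Hippo kinases, rose 1.70-fold. The DNA-binding partner TEAD2 fell 1.72-fold, and AMOT, which holds YAP in the cytoplasm, fell by 1.26-fold with a call that was lost in some fits (adjusted p = 0.0615 without gel 2, 0.0584 without gel 3, 0.0564 without plastic 1, 0.0572 without plastic 3 and 0.0679 without plastic 4).

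Of 20 YAP/TAZ target genes, 13 were higher on plastic, 1 lower and 6 not called, with a median log2 change of 0.82. The targets' counts were 2 called lower in the paired fit. CTGF, also known as CCN2, a matricellular growth factor partner, read 1447, 1598, 2470 and 939.5 CPM on gel and 4792, 4699, 5963 and 4485 CPM on plastic. Gel 4 was the lowest and gel 3 the highest on gel, and the surfaces did not overlap. CTGF rose 3.09-fold (log2 change 1.63, adjusted p = 0.00134) and CYR61, also known as CCN1, rose 1.74-fold (log2 change 0.80, adjusted p = 0.0024). The BMP-binding membrane protein CRIM1 rose 2.57-fold, and ANKRD1, a muscle ankyrin repeat protein, rose 7.91-fold (log2 change 4.10 without gel 4), with number 4 highest on both surfaces. RBMS3, an RNA-binding protein, was the list's called loss (log2 change -0.95, adjusted p = 0.00214).

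**Figure D4:**
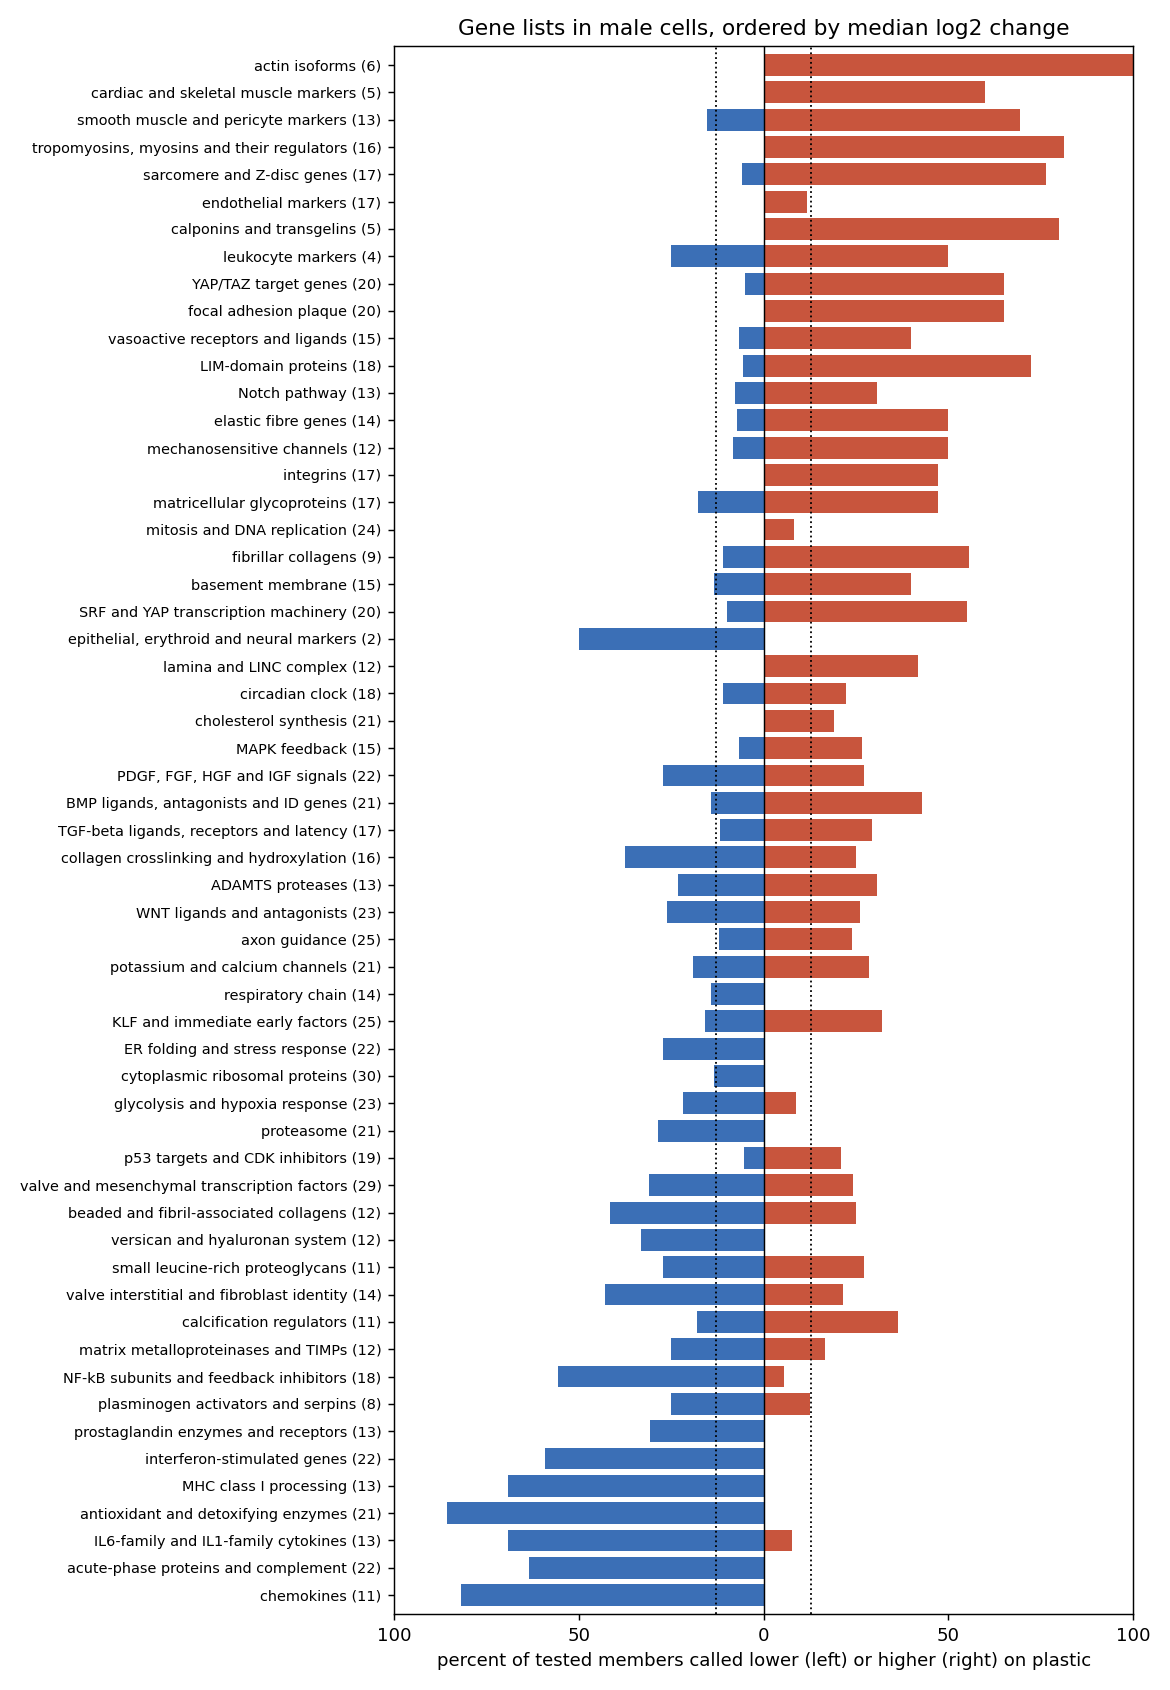
Bars give the percent of each list's tested members (number in brackets) called higher (right) or lower (left) on plastic in male cells, with lists ordered by median log2 change; dotted lines mark the 12.9% of all tested genes called in each direction. Actin and contractile lists lie near the top, together with the cardiac and skeletal muscle, smooth muscle and pericyte, endothelial and leukocyte marker lists. Adhesion lists lie below these, and chemokine and acute-phase lists lie at the bottom.

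Matrix genes moved in both directions, beside 12.9% of all genes called higher and 12.9% called lower. Of 9 fibrillar collagen chains, 5 were higher on plastic, 1 lower and 3 not called, with a median log2 change of 0.45. The fibrillar counts were 3 called higher without plastic 2 and 2 called lower in the paired fit. COL1A1 (chromosome 12, 26379087 to 26397180), the main chain of type I collagen, read 14833, 8826, 12644 and 10902 CPM on gel and 16663, 17518, 15872 and 14602 CPM on plastic. The surfaces overlapped, and COL1A1 rose 1.37-fold (log2 change 0.45, adjusted p = 0.0482). The call was fragile. It stood without gel 1, but the other 7 of the 8 fits without 1 library did not make it (adjusted p = 0.134 without gel 2, 0.0617 without gel 3, 0.103 without gel 4, 0.099 without plastic 1, 0.114 without plastic 2, 0.0842 without plastic 3 and 0.0568 without plastic 4). COL1A2, the partner chain, was not called (14123 ± 979.7 CPM on gel and 16541 ± 582 CPM on plastic, log2 change 0.23). COL3A1, the type III chain, rose 1.39-fold (log2 change 0.48, adjusted p = 0.0189), again with a fragile call (adjusted p = 0.0678 without plastic 2). COL5A1, a type V chain that starts fibrils, rose 2.19-fold (log2 change 1.13, SE 0.15, adjusted p = 4.03e-05), and COL5A2 rose 1.48-fold. The minor chain COL27A1 fell 2.01-fold.

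Of 12 beaded and fibril-associated collagens, 3 were higher on plastic, 5 lower and 4 not called, with a median log2 change of -0.23. The counts of these collagens were 3 called lower without gel 1, plastic 1 or plastic 4. COL15A1, which links basement membranes to fibrils, rose 2.28-fold and COL12A1, a fibril-associated chain, rose 1.90-fold. COL14A1, its close relative, fell 1.63-fold. COL6A5 was low throughout (2.46, 4.74, 3.28 and 0.314 CPM on gel and 0, 0.306, 0.133 and 0.0423 CPM on plastic), with log2 change -4.41, adjusted p = 0.00298, and 1 fit with a library out gave another value (log2 change -5.38 without plastic 2).

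Of 15 basement membrane genes, 6 were higher on plastic, 2 lower and 7 not called, with a median log2 change of 0.44. The basement membrane counts were 0 called lower without gel 2, gel 3, plastic 1 or plastic 4. COL4A1 (chromosome 11, 76858332 to 76997409), a chain of the type IV network, read 1499, 1361, 1230 and 1603 CPM on gel and 4251, 4185, 3924 and 3710 CPM on plastic. The surfaces did not overlap. COL4A1 rose 2.82-fold (log2 change 1.5, adjusted p = 1.04e-06) and perlecan (HSPG2), a heparan sulfate proteoglycan, rose 2.86-fold. The called losses were COL4A5 (-0.58; adjusted p = 0.0742 without gel 2, 0.102 without gel 3, 0.103 without plastic 1 and 0.0992 without plastic 4) and the laminin chain LAMA4 (-0.37; adjusted p = 0.0788 without gel 2, 0.0619 without gel 3, 0.0785 without plastic 1 and 0.096 without plastic 4).

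Of 14 tested elastic fibre genes, 7 were higher on plastic, 1 lower and 6 not called, with a median log2 change of 0.53. Elastin (ELN, chromosome 3, 11214194 to 11245891), the core of elastic fibres, read 71.5, 41.2, 44.3 and 28.7 CPM on gel and 477, 499.7, 413 and 225 CPM on plastic. All plastic libraries were above all gel libraries, and plastic 4 was the lowest of them. ELN rose 8.68-fold (log2 change 3.12, SE 0.46, adjusted p = 0.000118), and the microfibril protein MFAP5 rose from 1.94 ± 0.511 to 8.32 ± 2.23 CPM. Fibulin 1 (FBLN1) fell 1.91-fold.

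Enzymes that modify collagen did not move as one group. Of 16, 4 were higher on plastic, 6 lower and 6 not called, with a median log2 change of 0.10. The enzyme counts were 3 called lower without gel 1, gel 4, plastic 1 or plastic 3. Lysyl oxidase (LOX), which starts crosslinks, rose 1.56-fold and LOXL4 rose 2.33-fold, while LOXL2 fell 1.65-fold (log2 change -0.72, adjusted p = 0.00271) and the prolyl hydroxylase subunit P4HA1 fell 1.5-fold. The collagen chaperone SERPINH1 was level: 836 ± 100.1 CPM on gel and 838 ± 38.2 CPM on plastic, with a 95% interval of the log2 change of -0.20 to 0.20.

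Of 11 small leucine-rich proteoglycans, which bind collagen fibrils and growth factors, 3 were higher on plastic, 3 lower and 5 not called, with a median log2 change of -0.34. Lumican (LUM, chromosome 5, 91748871 to 91756381) read 1063, 1539, 918 and 1175 CPM on gel and 391, 361, 383 and 392 CPM on plastic. Its surfaces did not overlap, and LUM fell 3.08-fold (log2 change -1.62, adjusted p = 0.000475). Decorin (DCN) fell 2.51-fold, while fibromodulin (FMOD) and PRELP rose 2.26-fold and 2.34-fold. Of 12 genes of the versican and hyaluronan system, 0 were higher on plastic, 4 lower and 8 not called, with a median log2 change of -0.26. VCAN read 1666, 2125, 1580 and 1275 CPM on gel and 512, 455, 454 and 449 CPM on plastic. The plastic libraries lay close together and far below gel. VCAN fell 3.56-fold (log2 change -1.83, SE 0.24, adjusted p = 4.22e-05), and TNFAIP6, which crosslinks hyaluronan, fell 2.04-fold.

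Of 17 matricellular glycoproteins, 8 were higher on plastic, 3 lower and 6 not called, with a median log2 change of 0.48. NOV, also known as CCN3, rose from 48.4 ± 18.9 to 399.9 ± 141 CPM. Periostin (POSTN, chromosome 11, 13225183 to 13258973) read 791, 1619, 1345 and 2042 CPM on gel and 199, 188, 282 and 459.6 CPM on plastic. The gel libraries varied widely, number 4 was highest on both surfaces, and the groups did not overlap. POSTN fell 5.14-fold (log2 change -2.36, SE 0.63, adjusted p = 0.0112). SMOC1, a BMP antagonist of the matrix, fell 7.28-fold.

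Of 12 matrix metalloproteinases and TIMPs, 2 were higher on plastic, 3 lower and 7 not called, with a median log2 change of -0.43. The metalloproteinase counts were 5 called lower in the paired fit. The gelatinase MMP2 fell 1.81-fold and MMP19 fell 2.20-fold. TIMP2, an inhibitor, rose 1.45-fold, and MMP17, a membrane-anchored member, rose from 0.757 ± 0.493 to 11.6 ± 1.95 CPM, with a value that moved to log2 change 4.48 without gel 1. Of 13 ADAMTS proteases, 4 were higher on plastic, 3 lower and 6 not called, with a median log2 change of 0.05. The versican-cleaving ADAMTS5 fell from 31.7 ± 22.4 to 5.95 ± 2.62 CPM (log2 change -1.82 without gel 4), ADAMTS7 fell 2.0-fold, and ADAMTS9 and ADAMTS10 rose 1.83-fold and 1.81-fold.

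Of 8 plasminogen activators and serpins, 1 was higher on plastic, 2 lower and 5 not called, with a median log2 change of -0.69. The serpin counts were 5 called lower in the paired fit and 1 called lower without plastic 1 or plastic 3. SERPINE2 fell 1.79-fold, and SERPINB2 fell from 20.3 ± 11.6 to 4.27 ± 1.84 CPM (adjusted p = 0.0633 without gel 4, adjusted p = 0.0666 without plastic 1 and adjusted p = 0.0585 without plastic 3).

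Growth factor lists held calls in both directions, beside 12.9% of all genes called higher and 12.9% called lower. The lower calls of the TGF-beta and BMP lists lay near that share. Of 17 genes of TGF-beta ligands, receptors and latency, 5 were higher on plastic, 2 lower and 10 not called, with a median log2 change of 0.10. The TGF-beta counts were 1 called lower without gel 3, gel 4, plastic 1, plastic 2 or plastic 3. TGFB1 was not called (48.0 ± 17.3 CPM on gel and 54.5 ± 10.4 CPM on plastic, 95% interval of the log2 change -0.44 to 0.80). TGFB3 (chromosome 7, 99133873 to 99162239) read 149, 120.2, 189 and 93.0 CPM on gel and 822, 821, 1055 and 638 CPM on plastic. No gel library reached a plastic one. TGFB3 rose 6.05-fold (log2 change 2.60, SE 0.25, adjusted p = 1.8e-06), TGFB2 rose 3.37-fold, and the activin subunit INHBA rose 3.06-fold. The co-receptor TGFBR3 fell 3.15-fold. SMAD3, the receptor-activated messenger, had log2 change -0.38, adjusted p = 0.0261, with its call lost in several fits (adjusted p = 0.0502 without gel 3, 0.0627 without gel 4, 0.0821 without plastic 1, 0.0568 without plastic 2 and 0.0502 without plastic 3).

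Of 21 BMP ligands, antagonists and ID genes, 9 were higher on plastic, 3 lower and 9 not called, with a median log2 change of 0.16. The BMP counts were 5 called lower without gel 2. ID1, a direct BMP target and inhibitor of differentiation factors, read 59.4, 30.2, 65.2 and 48.6 CPM on gel and 10.7, 6.78, 4.75 and 6.30 CPM on plastic. Its surfaces did not overlap. ID1 fell 7.14-fold (log2 change -2.84, SE 0.26, adjusted p = 1.27e-06) and ID2 fell 2.60-fold, while ID4 rose 2.74-fold. BMP4 rose 2.21-fold and the antagonist CHRDL1 rose 1.98-fold.

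Chemokine, cytokine and complement lists had nearly all of their called members lower on plastic. Of 11 tested chemokines, 0 were higher on plastic, 9 lower and 2 not called, with a median log2 change of -3.49, beside 12.9% of all genes called lower. AMCF-II (chromosome 8, 70008225 to 70010360), the pig neutrophil chemokine that RefSeq also lists as CXCL6, read 528, 520, 291 and 394 CPM on gel and 4.64, 4.16, 1.77 and 1.31 CPM on plastic. The plastic libraries held a small residue of the gel level, and numbers 3 and 4 were the lowest there. AMCF-II fell 147-fold (log2 change -7.20, SE 0.39, adjusted p = 6.03e-09). The monocyte chemokine CCL2 (chromosome 12, 40798109 to 40800013) read 833, 974, 743 and 1279 CPM on gel and 121, 127, 134 and 167 CPM on plastic. Number 4 was highest on both surfaces, and the groups did not overlap. CCL2 fell 6.97-fold (log2 change -2.80, adjusted p = 6.48e-07), CXCL2 fell 23.6-fold and CXCL8, the neutrophil chemokine interleukin 8, fell 31.9-fold.

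Of 13 genes of the IL6 and IL1 families, 1 was higher on plastic, 9 lower and 3 not called, with a median log2 change of -1.07. IL6, a cytokine of the acute-phase response, read 103, 94.1, 118 and 358 CPM on gel and 16.9, 13.3, 19.0 and 20.0 CPM on plastic. Gel 4 was the highest by far. IL6 fell 9.72-fold (log2 change -3.28, adjusted p = 0.000211; log2 change -2.60 without gel 4). Its receptor IL6R and the IL1 receptor IL1R1 fell 2.63-fold and 2.46-fold. The exception was IL1RL1, the receptor of IL33, which read 2.38, 0.791, 3.99 and 2.69 CPM on gel and 47.1, 25.1, 32.4 and 63.4 CPM on plastic. Here every plastic library was above every gel library, and IL1RL1 rose 16.6-fold (log2 change 4.06, adjusted p = 8.45e-06).

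Of 22 acute-phase and complement genes, 0 were higher on plastic, 14 lower and 8 not called, with a median log2 change of -1.95. The acute-phase counts were 1 called higher in the paired fit and 1 called higher without gel 2. Complement C3 (chromosome 2, 72431470 to 72471622), the hub of the cascade, read 281, 298, 313 and 166 CPM on gel and 2.52, 4.2, 2.66 and 3.85 CPM on plastic. Each gel library was far above each plastic one. C3 fell 79.6-fold (log2 change -6.32, SE 0.50, adjusted p = 3.1e-07), serum amyloid A3 (SAA3) fell 64.2-fold, and the alternative-pathway protease CFD fell from 16.4 ± 3.96 to 1.15 ± 0.131 CPM. Regulators on the cell surface were not called: CD46 had a log2 change of -0.21 and CD59 of 0.13.

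Of 18 NF-kB subunits and feedback inhibitors, 1 was higher on plastic, 10 lower and 7 not called, with a median log2 change of -0.48. The NF-kB count was 6 called lower without plastic 3. NFKBIA (chromosome 7, 64508119 to 64510754), the inhibitor that NF-kB itself induces, read 90.1, 63.3, 68.9 and 93.7 CPM on gel and 10.4, 13.9, 14.7 and 13.8 CPM on plastic. It fell 5.98-fold (log2 change -2.58, SE 0.16, adjusted p = 1.68e-08) with no overlap. TNFAIP3, a deubiquitinase of the same feedback, fell 8.72-fold, while the subunit REL rose 1.75-fold. RELA, the main activating subunit, had 65.6 ± 12.2 CPM on gel and 73.4 ± 2.2 CPM on plastic.

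Of 22 interferon-stimulated genes, 0 were higher on plastic, 13 lower and 9 not called, with a median log2 change of -0.78. IRF1 fell from 23.6 ± 0.224 to 7.40 ± 1.5 CPM (log2 change -1.67, adjusted p = 3.24e-07). Several of these genes, such as IFIT1 (1.90 CPM on gel, 0.248 on plastic), were near the low end of the table on both surfaces. Of 13 genes of MHC class I processing, 0 were higher on plastic, 9 lower and 4 not called, with a median log2 change of -0.81. The proteasome activator PSME1 fell 2.21-fold, the trimming peptidase ERAP2 fell 4.92-fold, and B2M, the light chain of every class I molecule, fell 1.62-fold.

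Of 21 antioxidant and detoxifying enzymes, 0 were higher on plastic, 18 lower and 3 not called, with a median log2 change of -0.89. Besides SOD2, the secreted glutathione peroxidase GPX3 read 43.8, 35.4, 57.4 and 103 CPM on gel and 2.71, 2.76, 3.73 and 2.32 CPM on plastic. It fell 20.8-fold (log2 change -4.38, adjusted p = 2.24e-06). HMOX1, which degrades haem, and CAT, catalase, fell 3.20-fold and 2.25-fold. Small losses with fragile calls were those of GPX4 (-0.25; adjusted p = 0.0602 in the paired fit, adjusted p = 0.072 without gel 1, 0.087 without gel 3, 0.0922 without plastic 1, 0.0548 without plastic 2 and 0.0647 without plastic 4) and SOD1 (-0.36; adjusted p = 0.0508 without gel 2, 0.0508 without plastic 1 and 0.0694 without plastic 4). Of 13 prostaglandin enzymes and receptors, 0 were higher on plastic, 4 lower and 9 not called, with a median log2 change of -0.71. PTGS1, the constitutive cyclooxygenase, fell 4.20-fold and the synthase PTGES fell 3.12-fold, whereas the inducible PTGS2 had 899.6 ± 342 CPM on gel and 1024 ± 197 CPM on plastic.

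Of 22 genes of the PDGF, FGF, HGF and IGF signals, 6 were higher on plastic, 6 lower and 10 not called, with a median log2 change of 0.16. Insulin-like growth factor 1 (IGF1, chromosome 5, 81762027 to 81909253) read 694, 1135, 735 and 846 CPM on gel and 40.5, 38.4, 38.2 and 20.4 CPM on plastic. Plastic 4 was the lowest, and no gel library came near the plastic ones. IGF1 fell 24.8-fold (log2 change -4.63, SE 0.45, adjusted p = 2.05e-06). Its receptor IGF1R rose 1.94-fold and the binding protein IGFBP7 rose 2.40-fold. HGF read 54.9, 76.9, 55.7 and 212 CPM on gel and 23.5, 27.9, 35.6 and 54.1 CPM on plastic and fell 2.83-fold, with a call that rested on gel 4 and others (adjusted p = 0.0551 without gel 2, 0.23 without gel 4, 0.124 without plastic 1, 0.114 without plastic 2 and 0.0972 without plastic 3). Without gel 4 its log2 change was -0.82, against -1.5 with it. Its receptor MET rose 2.05-fold.

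Of 15 vasoactive receptors and ligands, 6 were higher on plastic, 1 lower and 8 not called, with a median log2 change of 0.77. Over all genes, 12.9% were called in each direction. The vasoactive counts were 2 called lower in the paired fit and 0 called lower without gel 1, gel 2, gel 4 or plastic 1. The angiotensin receptor AGTR1 rose from 3.55 ± 1.77 to 20.6 ± 1.47 CPM and the serotonin receptor HTR2A rose from 11.3 ± 2.77 to 37.4 ± 3.66 CPM. S1PR3, a sphingosine-1-phosphate receptor, was the called loss (-0.58), and its call was lost in 5 fits (adjusted p = 0.114 without gel 1, 0.0674 without gel 2, 0.0769 without gel 4, 0.132 without plastic 1 and 0.137 without plastic 3).

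Of 23 WNT ligands and antagonists, 6 were higher on plastic, 6 lower and 11 not called, with a median log2 change of 0.02. FZD1, a WNT receptor, fell 3.6-fold and the non-canonical ligand WNT5A fell 4.06-fold, while WNT9A rose 3.86-fold and the antagonist DKK2 rose 3.26-fold. Of 13 Notch genes, 4 were higher on plastic, 1 lower and 8 not called, with a median log2 change of 0.53. Each fit without 1 library called 3 of them higher. The receptor NOTCH3, typical of mural cells, rose 3.47-fold and the ligand JAG1 rose 3.08-fold, and HEY2, a target, fell 1.41-fold. Of 25 axon guidance genes, 6 were higher on plastic, 3 lower and 16 not called, with a median log2 change of -0.02. The lower calls of the Notch and axon guidance lists did not exceed the 12.9% of all genes called lower. SLIT3 rose from 3.59 ± 1.26 to 28.0 ± 2.67 CPM, SEMA3B rose 3.0-fold, SEMA3A fell 7.90-fold and EFNB1 fell 2.35-fold.

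Of 21 potassium and calcium channel genes, 6 were higher on plastic, 4 lower and 11 not called, with a median log2 change of -0.07. Over all genes, 12.9% were called in each direction. The ion channel counts were 1 called lower without gel 1 and 2 called lower without gel 3, gel 4, plastic 2, plastic 3 or plastic 4. The calcium pump ATP2B4 rose 1.71-fold and the calcium release channel ITPR1 rose 1.90-fold, and the potassium channel KCNJ2 fell 3.81-fold. Of 11 calcification regulators, 4 were higher on plastic, 2 lower and 5 not called, with a median log2 change of -0.39. The calcification counts were 2 called higher without plastic 1 or plastic 4 and 1 called lower without plastic 1, plastic 2 or plastic 3. Matrix Gla protein (MGP, chromosome 5, 57665272 to 57669360), which holds back mineral growth, read 142, 133, 110.2 and 65.7 CPM on gel and 562, 639, 738 and 268 CPM on plastic. It rose 4.90-fold (log2 change 2.29, adjusted p = 0.000394) without overlap. The decoy receptor TNFRSF11B rose from 1.95 ± 0.660 to 7.17 ± 0.405 CPM. OMD fell 2.67-fold, and BMP2, an osteogenic ligand, had log2 change -1.35, adjusted p = 0.024, not called in some fits (adjusted p = 0.0954 without gel 4, adjusted p = 0.0672 without plastic 1, adjusted p = 0.0557 without plastic 2 and adjusted p = 0.0636 without plastic 3).

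Transcription factors of the valve held calls in both directions, beside 12.9% of all genes called higher and 12.9% called lower. Of 29 tested, 7 were higher on plastic, 9 lower and 13 not called, with a median log2 change of -0.22. Fits without 1 library called 4 to 5 of the valve factors higher (4 without plastic 3) and 6 to 7 lower. The higher calls of those fits lay near that share. PRRX1, a mesenchymal homeobox factor, read 1214, 1705, 1083 and 940.3 CPM on gel and 557, 525, 560.2 and 506 CPM on plastic. It fell 2.3-fold (log2 change -1.20, adjusted p = 4.24e-05), and SOX9, a factor of valve and cartilage progenitors, fell 2.95-fold. MEOX1, a homeobox factor, rose from 0.297 ± 0.111 to 1.09 ± 0.287 CPM, and OSR1 rose 1.95-fold. MEOX1 was so low on gel that, among the male libraries, it could pass the abundance filter only through plastic. The direction of MEOX1 is no separate evidence. TWIST1 had 24.8 ± 4.36 CPM on gel and 26.0 ± 2.99 CPM on plastic. Of 25 KLF and immediate early factors, 8 were higher on plastic, 4 lower and 13 not called, with a median log2 change of -0.09. The KLF counts were 5 called higher without plastic 2 or plastic 3 and 8 called lower in the paired fit. KLF7 rose 2.66-fold and the stress factor ATF3 rose 2.96-fold, IER3 fell 2.48-fold, and FOSB fell from 2.59 ± 1.2 to 0.561 ± 0.156 CPM.

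Of 15 MAPK feedback genes, 4 were higher on plastic, 1 lower and 10 not called, with a median log2 change of 0.18. The MAPK counts were 2 called lower in the paired fit and 2 called lower without gel 1, gel 3 or plastic 4. The phosphatases DUSP14 and DUSP1 rose 3.53-fold and 2.22-fold, and SPRY1, an inhibitor of growth factor receptors, fell 2.64-fold. Of 18 circadian clock genes, 4 were higher on plastic, 2 lower and 12 not called, with a median log2 change of 0.21. The clock count was 2 called higher without plastic 4. The lower calls of the MAPK and clock lists lay near or below the 12.9% of all genes called lower. The repressors CRY2 and PER2 rose 2.01-fold and 1.71-fold, while BHLHE41 fell 3.89-fold and NFIL3 fell 1.37-fold.

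Genes of cell division did not pass the test in most cases. Of 24 mitosis and DNA replication genes, 2 were higher on plastic, 0 lower and 22 not called, with a median log2 change of 0.45 (12.9% of all genes were called in each direction). The division counts were 9 called higher in the paired fit, 0 called higher without gel 1, plastic 1 or plastic 4, 1 called higher without gel 2, gel 3, plastic 2 or plastic 3 and 2 called lower in the paired fit. MKI67, the proliferation antigen, read 34.9, 31.5, 33.2 and 46 CPM on gel and 75.0, 64.2, 55.5 and 57.1 CPM on plastic (log2 change 0.79, adjusted p = 0.058). Its surfaces did not overlap, and it was called in the paired fit (adjusted p = 0.0048) and without gel 4 (adjusted p = 0.0482 without gel 4). CENPF and PLK1, mitotic proteins, were the called ones (0.91 and 0.98). CENPF lost its call in some fits (adjusted p = 0.106 without gel 1, 0.116 without gel 3, 0.074 without gel 4, 0.104 without plastic 1, 0.0902 without plastic 2, 0.0608 without plastic 3 and 0.0696 without plastic 4), and so did PLK1 (adjusted p = 0.0564 without gel 1, 0.0558 without gel 2, 0.0696 without plastic 1 and 0.0542 without plastic 4).

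Of 19 p53 targets and CDK inhibitors, 4 were higher on plastic, 1 lower and 14 not called, with a median log2 change of -0.22. Over all genes, 12.9% were called in each direction. The p53 counts were 3 called lower in the paired fit, 2 called lower without gel 2, gel 3 or gel 4 and 3 called lower without plastic 4. CDKN2B, a CDK4 inhibitor that TGF-beta induces, rose 2.21-fold, the death receptor FAS rose 2.02-fold and SESN1 fell 2.79-fold. CDKN1A had 186 ± 24.5 CPM on gel and 154 ± 9.57 CPM on plastic. Of 21 cholesterol synthesis genes, 4 were higher on plastic, 0 lower and 17 not called, with a median log2 change of 0.18. The sterol carrier STARD4 rose 2.65-fold.

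Of 23 genes of glycolysis and the hypoxia response, 2 were higher on plastic, 5 lower and 16 not called, with a median log2 change of -0.19. The higher calls lay below the 12.9% of all genes called higher. ANGPTL4 fell 3.82-fold and the oxygen-sensing hydroxylase EGLN3 fell 3.28-fold, and the kinase PDK1 and hexokinase HK1 rose 1.74-fold and 1.51-fold. GAPDH, often taken as a reference gene, read 1414, 975, 1292 and 1656 CPM on gel and 1095, 983, 1003 and 1014 CPM on plastic. It was not called (log2 change -0.38, adjusted p = 0.0663) but was without gel 2, its lowest gel value (adjusted p = 0.00908 without gel 2). Of 21 listed respiratory chain genes, only 14 were found in the counts under the names tried. UQCRC1, UQCRC2, CYC1 and COX4I1 were among those not found. Of the 14 tested, 0 were higher on plastic, 2 lower and 12 not called, with a median log2 change of -0.07. Over all genes, 12.9% were called lower. The respiratory counts were 1 called lower without gel 3, plastic 1 or plastic 3 and 0 called lower without gel 4, plastic 2 or plastic 4. These were NDUFS1 (-0.25; adjusted p = 0.0591 without gel 4, 0.0634 without plastic 2 and 0.0676 without plastic 4) and COX6C (-0.29; adjusted p = 0.059 without gel 2, 0.0682 without gel 3, 0.0745 without gel 4, 0.0631 without plastic 1, 0.103 without plastic 2, 0.0616 without plastic 3 and 0.0808 without plastic 4).

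Of 30 cytoplasmic ribosomal proteins, 0 were higher on plastic, 4 lower and 26 not called, with a median log2 change of -0.18, near the share of all genes called lower. The ribosomal counts were 0 called lower without gel 2 or plastic 4, 2 called lower without gel 3, 7 called lower without gel 4 and 1 called lower without plastic 1 or plastic 2. RPL5 (-0.45; adjusted p = 0.0805 without gel 2, 0.0521 without plastic 2 and 0.0852 without plastic 4) and RPL19 (-0.36; adjusted p = 0.0739 without gel 2, 0.0504 without plastic 1 and 0.0894 without plastic 4) had the smallest p among them. Of 21 proteasome genes, 0 were higher on plastic, 6 lower and 15 not called, with a median log2 change of -0.20. PSMA6 fell 1.70-fold and PSMA3 fell 1.35-fold. Of 22 ER folding and stress genes, 0 were higher on plastic, 6 lower and 16 not called, with a median log2 change of -0.13. The ER counts were 1 called higher in the paired fit, 2 called lower without gel 4 or plastic 4 and 3 called lower without plastic 2 or plastic 3. The chaperone CANX fell 1.45-fold and the co-chaperone DNAJB9 fell 1.47-fold, and HSPA5, the main ER chaperone, had 961 ± 136 CPM on gel and 884 ± 95.3 CPM on plastic.

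Markers of cell identity and of other cells were followed beside these groups. Of 14 interstitial and fibroblast markers, 3 were higher on plastic, 6 lower and 5 not called, with a median log2 change of -0.38. The identity counts were 1 called higher without gel 2, gel 4, plastic 1 or plastic 3 and 0 called higher without plastic 2. PDGFRA, LUM and DCN, given above, and the collagen receptor DDR2 (-0.55) were among those lower. THY1, a fibroblast surface glycoprotein, read 151, 115, 172 and 78.7 CPM on gel and 249, 224, 257 and 146 CPM on plastic (log2 change 0.76, adjusted p = 0.0464), with a call lost in 6 fits (adjusted p = 0.0509 without gel 1, 0.0987 without gel 2, 0.121 without gel 4, 0.11 without plastic 1, 0.0861 without plastic 2 and 0.119 without plastic 3).

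Of 13 smooth muscle and pericyte markers, 9 were higher on plastic, 2 lower and 2 not called, with a median log2 change of 1.69. The mural counts were 1 called lower without gel 1 or plastic 4. Summed CPM of the list was 660 to 1121 on gel and 3275 to 4220 on plastic. MCAM, a mural adhesion molecule, rose 2.82-fold. The pericyte potassium channel genes went the other way: ABCC9 fell from 8.81 ± 3.95 to 2.42 ± 0.914 CPM, and KCNJ8 fell from 1.37 ± 0.622 to 0.385 ± 0.229 CPM (adjusted p = 0.0667 without gel 1 and adjusted p = 0.0533 without plastic 4). Contractile genes sit both in this list and in those above, and the part of mural cells in their changes was not tested. Of 19 cardiac and skeletal markers in the data, only 5 passed the abundance filter for testing. Of these 5, 3 were higher on plastic, 0 lower and 2 not called, with a median log2 change of 2.56. Summed CPM of the list was 1.64 to 2.53 on gel and 10.8 to 12 on plastic. CASQ2, a calcium store protein, read 0.210, 0.226, 0.559 and 0.224 CPM on gel and 5.42, 8.66, 7.06 and 7.14 CPM on plastic. The natriuretic peptide NPPB stood at 0, 0, 0 and 0.135 CPM on gel and 1.69, 0.787, 1.33 and 1.01 CPM on plastic, with reads in 1 gel library. Among the male libraries CASQ2 and NPPB could pass the filter only through plastic. Their direction, also in the list's count, is therefore no separate evidence.

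Of 17 endothelial markers, 2 were higher on plastic, 0 lower and 15 not called, with a median log2 change of 0.94. Over all genes, 12.9% were called higher. The endothelial counts were 8 called higher in the paired fit, 1 called higher without gel 1, gel 3, plastic 3 or plastic 4 and 4 called higher without gel 4. VE-cadherin (CDH5), which defines endothelial junctions, read 7.51, 4.97, 11.2 and 44.8 CPM on gel and 23.5, 20.9, 42.3 and 88.0 CPM on plastic. Number 4 was highest on both surfaces, and gel 4 exceeded plastic 1, 2 and 3. CDH5 was not called (log2 change 1.35, adjusted p = 0.216), but was without gel 4 (adjusted p = 0.0336 without gel 4), and the paired fit gave adjusted p = 0.00117. The log2 change of CDH5 was 2.46 without gel 4 and 0.76 without plastic 4. PECAM1, another defining marker, read 34.8, 48.0, 55.1 and 83.1 CPM on gel and 25.1, 23.4, 41.0 and 61.2 CPM on plastic (log2 change -0.55, adjusted p = 0.393). It too was highest in number 4 on both surfaces. LYVE1, a lymphatic marker, stood at 0, 0, 0 and 0.0897 CPM on gel and 1.69, 0.656, 0.710 and 0.845 CPM on plastic, and ROBO4 at 0.210, 0, 0.224 and 0.135 CPM on gel and 0.387, 0.744, 4.04 and 1.82 CPM on plastic (adjusted p = 0.0593 without gel 1, 0.0759 without gel 2, 0.0586 without gel 3, 0.069 without gel 4, 0.125 without plastic 3 and 0.0576 without plastic 4). Both were so low on gel that, among the male libraries, they could pass the abundance filter only through plastic. Their direction is no separate evidence.

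Of 4 leukocyte markers tested, 2 were higher on plastic, 1 lower and 1 not called, with a median log2 change of 0.90, with 103 to 149 CPM summed on gel and 155 to 248 on plastic. The leukocyte count was 1 called higher without gel 1, gel 2, gel 3, plastic 3 or plastic 4. Most of that sum was KIT, a receptor also found outside leukocytes, which read 89.8, 102, 110.5 and 137 CPM on gel and 144, 159, 234 and 180.5 CPM on plastic (log2 change 0.71, adjusted p = 0.0284). Its call was lost in some fits (adjusted p = 0.0749 without gel 1, 0.0615 without gel 2, 0.053 without gel 3, 0.105 without plastic 3 and 0.0552 without plastic 4). LAPTM5 rose from 1.53 ± 0.892 to 7.88 ± 3.93 CPM and CD14 fell from 8.57 ± 2.69 to 3.71 ± 0.153 CPM. Of the epithelial, erythroid and neural markers, 2 were tested and the list summed to 4.91 to 6.37 CPM on gel and 3.67 to 4.75 on plastic. S100B was called lower (log2 change -0.59, adjusted p = 0.0391), with 0 called lower without gel 2, gel 3, plastic 1, plastic 2 or plastic 4. The part of endothelial, leukocyte or other cells in the results above was not tested.

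The difference of the surface changes between male and female cells was tested for every gene. By edgeR's quasi-likelihood test, 0 of 14530 genes passed (0%), with 633 at an unadjusted p under 0.05 and a smallest adjusted p of 0.767. DESeq2 and limma-voom also called 0. In female cells alone 3476 genes were called (23.9%), and 2398 genes were called in the same direction in both sexes, which is 64% of the male and 69% of the female calls; 0 were called in opposite directions. For ACTA2 the log2 change was 2.32 in male cells and 2.18 in female cells (difference 0.14 ± 0.42 (SE), adjusted p = 0.93). For SOD2 it was -4.20 in male cells and -4.15 in female cells (difference -0.06 ± 0.19 (SE), adjusted p = 0.941). None of the changes described above can be called particular to male cells from these libraries.

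The 3 smallest p of the difference in each direction are given as values. LOC110258214 and LOC110258600, protein-coding genes on unplaced sequence, had log2 changes of 1.27 in male cells and -1.90 in female cells (unadjusted p of the difference 0.000848) and 1.25 in male cells and -1.90 in female cells (0.00112). LOC110258214 read 557, 163, 970.4 and 1170 CPM on gel and 669, 2673, 2378 and 1170 CPM on plastic in the male libraries. Its levels spread over a wide range within each surface and the surfaces overlapped. SH3BP1, a Rac GTPase-activating protein, had -0.59 in male cells and -2.18 in female cells, and was called in male cells without gel 2 (adjusted p = 0.0199 without gel 2). In the other direction stood CADPS2 (-1.39 in male cells and -0.68 in female cells), which primes secretory vesicles, the splicing factor PTBP2 (-0.01 in male cells and 0.54 in female cells) and the zinc finger gene ZNF518A (-0.37 in male cells and 0.24 in female cells). The male call of ZNF518A (adjusted p = 0.0228) was lost in some fits (adjusted p = 0.0618 without plastic 2, 0.0644 without plastic 3 and 0.0661 without plastic 4).

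**Figure D5:**
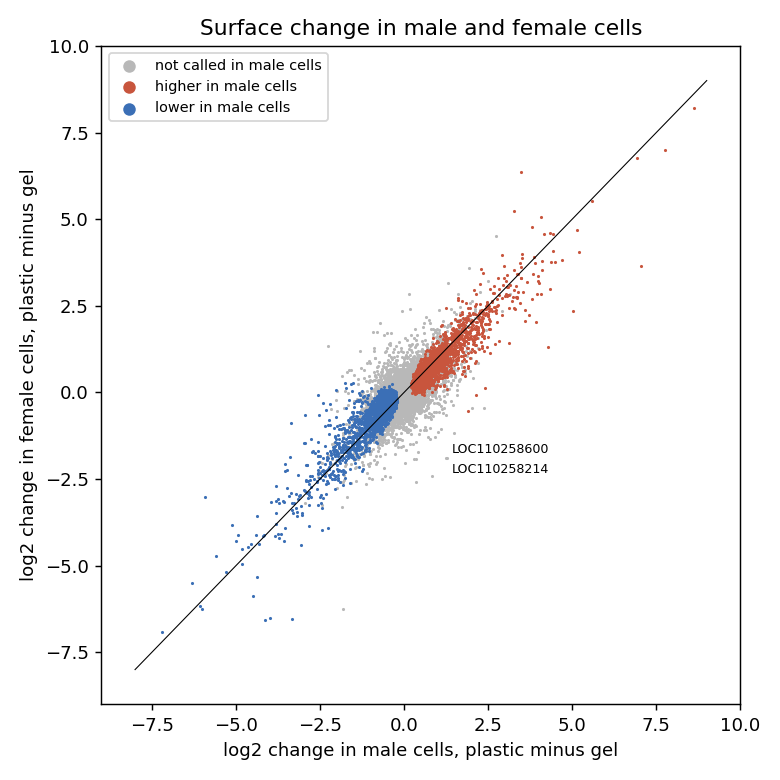
Each point is 1 tested gene, with its log2 change (plastic minus gel) in male cells on the horizontal and in female cells on the vertical axis; colours give the call in male cells and the line marks equal changes. Most genes called in male cells lie on the same side of 0 in female cells, and 0 genes passed the test of the difference.

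Some abundant genes were level between surfaces. The 95% interval of the log2 change lay within 1.2-fold either way for 521 of the tested genes. Those with the highest CPM included EIF4G2, a translation factor (1952 ± 205 CPM on gel and 1994 ± 77.9 CPM on plastic), CALU, an ER calcium-binding protein (1348 ± 210.2 CPM on gel and 1352 ± 90.0 CPM on plastic), SERPINH1, FAT1, an atypical cadherin (829 ± 104 CPM on gel and 819 ± 46.0 CPM on plastic), and SPTBN1, a spectrin chain (742 ± 76.2 CPM on gel and 765 ± 27.5 CPM on plastic). EIF4G2 had a log2 change of 0.03 with an interval of -0.15 to 0.21.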

How the data were processed

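Polyadenylated RNA of male and female valve interstitial cells was sequenced from KAPA HyperPrep libraries, per the labels' protocols. The authors deposited whole-number counts per gene; per the submitters' processing notes, reads were handled with FastQC 0.11.5, Trimmomatic 0.36, HISAT2 2.1.0, SAMtools 1.3.1 and featureCounts, on build Sscrofa11.1. Strand, annotation release and the handling of multi-mapping reads are not given in the sources used here. Of 29576 entries, 24 carried numbers in place of gene names (0.169% of counts) and were left out. The deposited counts give totals of 16928784 to 26379065 per male library, and low counts widen the standard errors (median SE 0.448 in the least and 0.126 in the most abundant of 4 bins of genes).

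Genes were kept by edgeR's filterByExpr (14530). A gene near 0 on a surface could pass that filter only through libraries where it was higher, so its direction was partly set by the filter. Group means of all 16 libraries were fitted with TMM factors and edgeR 4.0.16's quasi-likelihood F test (12 residual degrees of freedom, R 4.3.3), and p adjusted by Benjamini-Hochberg over all tested genes. SE is the log2 change divided by the root of F, and changes by pair are differences of log2 CPM, to which edgeR added a prior count of 2. The procedure was tried on simulated counts with independent libraries and far fewer changed genes than were called here. Such counts cannot show how it handles linked libraries or this many changes. Samples were grouped by their titles. Same-numbered male libraries deviated together (correlations 0.137, 0.126, 0.29 and 0.489, others -0.319 to 0.109), so the numbers were taken as pairs in the paired fit, with the pair as a block; whether same-numbered libraries came from 1 animal is not stated in the labels. Libraries of a group differed by more than sampling noise (chi-square per degree of freedom 8.742 to 68.06).

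The 57 gene lists were chosen with earlier results of these data known. They hold 1060 entries, 24 of them not matched, and 889 genes were tested. Of all tested genes 12.9% were called in each direction, and every list count is to be read beside that share. Genes were named by rule: per list the 2 called members of smallest p in each direction (all members of the small lists), the 10 smallest p and 8 largest CPM differences in each direction, 17 fixed genes, 6 level genes, and 3 genes per direction for the difference between sexes. Of 252 genes named, 36 fall outside it and were chosen after their values were seen; some genes that the rule gives are not reported here. Positions are from RefSeq Sscrofa11.1. Alternatives were DESeq2 1.42.0, limma-voom (limma 3.58.1), RLE size factors, other filters, glmTreat, the male libraries alone, the paired fit and omission of each library.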

Additional observations from a re-analysis of the deposited data

Results flagged for a closer look

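In 36 of 516 groups of 4 male libraries examined, 1 library lay further from the other 3 than Dixon's 95% critical value allows; chance does so in about 1 in 20 groups. Plastic 4 was that library 11 times, gel 4 8 times, gel 2 6 times and gel 1 in 0 groups. All values are CPM, with the range of the other 3 libraries of the same surface.

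Plastic 4 was low in contractile genes: MYH11 at 405 (719 to 765), MYH9 at 6313 (6895 to 6953), TAGLN at 3688 (4890 to 4946) and the summed smooth muscle and pericyte markers at 3275 (4158 to 4220). It was also low in IGF1 at 20.4 (38.3 to 40.5), PDGFRA at 238 (322 to 328), LOX at 355 (410 to 419) and KCNJ8 at 0.0423 (0.484 to 0.525). It was high in ANKRD1 at 128 (42.7 to 53.8), TTN at 175 (108 to 115) and DKK2 at 19.9 (10.1 to 10.7).

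Gel 4 was high in ANKRD1 as well, at 22.3 (2.82 to 4.62), and in the endothelial gene CDH5 at 44.8 (4.97 to 11.2), HGF at 212 (54.9 to 76.9) and IL6 at 358 (94.1 to 117). It held the only gel counts of LYVE1, at 0.0897, and NPPB, at 0.135 (0 in the others). It was low in ABCC9 at 2.96 (10.2 to 11.6) and EEF1A1 at 9811 (11198 to 11456).

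Gel 2 was low in TRPM4 at 3.73 (10.3 to 11.2), CYP1A1 at 11.4 (44 to 50.6), CFD at 10.5 (17.8 to 18.8) and TEAD2 at 41.1 (55.8 to 57.4), and high in SEMA3A at 30.7 (15.5 to 16.4) and ZNF518A at 18.6 (15.4 to 15.5). Gel 3 was high in AGTR1 at 6.19 (2.32 to 2.88) and CASQ2 at 0.559 (0.21 to 0.226). Plastic 1 was high in VCAN at 512 (449 to 455) and ZNF518A at 14.2 (11.8 to 12.1) and low in TNFAIP3 at 14.4 (18.4 to 18.6). Plastic 2 was low in THBS1 at 27642 (34070 to 34722), OSTF1 at 89.7 (106 to 108) and IER3 at 23.4 (30.2 to 30.4). Plastic 3 was high in CNN3 at 352 (307 to 311) and B2M at 282 (241 to 245), and low in TRPM4 at 24.7 (32.9 to 34.6).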

How the results depend on the processing

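The 3748 male calls (1876 higher, 1872 lower) became 2189 (1226 and 963) where edgeR's glmTreat asked for a change beyond 1.2-fold. The count was 3705 with RLE size factors, 4166 with DESeq2, 3558 with limma-voom, 3293 with no filter, 3722 with a minimum of 1 CPM in 4 libraries and 3015 from the 8 male libraries alone. Leaving out each library gave 2859 to 3609, and the listed genes called went from 436 to between 371 and 411. Pairing the replicate numbers as a block gave 4319 calls, 520 of them in the lists, and 17 of 114 list counts moved by over 1.5 times; of the named genes it dropped GPX4 and added CDH5 and MKI67, and it changed no other call. Without both male libraries numbered 4, tried after seeing the data, 2662 genes and 346 listed genes were called. The difference between sexes gave 0 calls in every setting run for it. No named gene reversed its direction in any setting run. Of 223 named genes called, 28 lost the call without some library, and genes under about 3.6 CPM were called least often.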

Other observations

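Some gene families outside the lists above held large male surface changes. These families were chosen after their values were seen, so their counts are a description and carry no test. Over all tested genes, 12.9% were called higher and 12.9% lower. Besides FLNA, the muscle filamin FLNC, another actin crosslinker, rose 4.33-fold. Of 7 tested small heat shock proteins, chaperones that bind cytoskeletal filaments, 5 were called higher and 0 lower (median log2 change 1.45). HSPB7, the cardiovascular member, read 16.4, 8.24, 10.2 and 5.65 CPM on gel and 187, 109, 146 and 156 CPM on plastic. Its surfaces did not overlap, and it rose 14.6-fold (log2 change 3.87, SE 0.35, adjusted p = 1.01e-06). Alpha-B crystallin (CRYAB), a chaperone of desmin, rose from 69.9 ± 5.08 to 268 ± 30.4 CPM. Of 7 tested neurotrophins and their receptors, 4 were called higher and 0 lower, and brain-derived neurotrophic factor (BDNF) rose from 1.43 ± 0.936 to 16.8 ± 4.79 CPM (log2 change 3.54, adjusted p = 0.000137).

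Of 6 tested genes of iron storage and transport, 5 were called lower and 0 higher (median log2 change -0.72). The ferritin light chain FTL read 1107, 1053, 1342 and 1813 CPM on gel and 439, 526, 513 and 623 CPM on plastic. It fell 2.53-fold (log2 change -1.34, adjusted p = 0.000139), and the heavy chain FTH1 fell 1.97-fold. Of 8 tested genes of the aryl hydrocarbon receptor pathway, which senses aromatic ligands, 7 were called lower and 0 higher (median log2 change -1.66). The receptor AHR itself read 601, 865, 571 and 706 CPM on gel and 145, 135, 156 and 209.7 CPM on plastic. Every plastic library was below every gel library, and AHR fell 4.25-fold (log2 change -2.09, adjusted p = 7.56e-06). Its target enzyme CYP1A1 fell from 37.8 ± 17.9 to 6.80 ± 3.66 CPM. Of 9 tested cAMP phosphodiesterases, 0 were called higher and 2 lower with a median of -0.01, beside 12.9% of all genes called lower. One of these, PDE4B, an enzyme of immune and stromal cells, fell 8.87-fold.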
